A study of Mus musculus with 6 samples.

Results

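Rab GTPases are small GTP-binding proteins that act as switches of membrane traffic. Each Rab marks particular vesicles or organelles, is loaded with GTP by exchange factors, recruits effectors in that form, is shut off by GTPase-activating proteins, and is carried through the cytosol by GDP dissociation inhibitors. LRRK2, the kinase whose G2019S variant causes inherited Parkinson's disease, phosphorylates a subset of Rabs in the switch II loop, and that variant raises its activity. The family was taken as every gene of the deposited table whose symbol is Rab followed by digits and an optional letter, 55 of 23067 genes. Of these, 13 are substrate Rabs of LRRK2 by a list from outside these data (Rab3a, Rab3b, Rab3c, Rab3d, Rab5a, Rab5b, Rab8a, Rab8b, Rab10, Rab12, Rab29, Rab35 and Rab43), and 42 are the other members. The release M21 annotation of GENCODE holds 59 such symbols, and the 4 without a row (Rab17, Rab19, Rab25 and Rab38) were not analysed here.

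RNA was sequenced from dorsal striatum of mice at postnatal day 21, 3 libraries from homozygous Lrrk2 G2019S/G2019S knock-in mice and 3 from Lrrk2 WT/WT controls, with no other allele or treatment named. Values are FPKM, fragment counts corrected for transcript length and for sequencing depth, so levels can be set side by side between genes. The titles call all animals male, yet Xist, the RNA of the inactive X chromosome, ranged from 31.4 to 33.02 FPKM in wild type and, in knock-in, from 27.2 to 39.3 FPKM, so the sex in the titles is in doubt for both groups alike. Whether each sample is a different mouse is not stated in the labels. The p-values therefore rest on the variation among these particular samples, and part of it may be technical.

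The tissue carried the markers of striatal projection neurons. The 10 marker genes of these cells had sums of 2793 to 2917 FPKM in wild-type libraries and of 2787 to 3087 FPKM in knock-in libraries. Of the 10, 8 were higher and 2 lower in knock-in, with 0 called. Other cell types varied between libraries. The 12 cortical excitatory neuron markers had sums of 53.5 to 71.9 FPKM in wild-type libraries and of 56.1 to 112 FPKM in knock-in ones, none at 0. The 9 tested were all higher in knock-in, with 0 called. Among them the vesicular glutamate transporter Slc17a7 was highest in knock-in replicates 1 and 2 (29.9 and 25.2 FPKM), followed by wild type replicate 1 (10.95 FPKM), while the remaining 3 libraries held 2.73 to 3.55 FPKM. The 8 myelinating oligodendrocyte markers differed between the genotypes without overlap, with sums of 3254, 3312 and 2909 FPKM in wild type and 2752, 2901 and 2345 FPKM in knock-in. All 8 were lower in knock-in, 4 at an unadjusted p under 0.05 and 0 called. Over all genes tested, 4.27% had such a p and 43.6% were higher. In 2 of the 8 all knock-in libraries lay below wild type, as in 6.58% of all genes tested. The 6 tested ependymal markers were all lower as well (4 at an unadjusted p under 0.05), and the sums over that list ran from 26.7 to 30.4 FPKM in wild-type libraries against 18.4 to 26.6 FPKM in knock-in ones. All 7 markers of oligodendrocyte precursors and their wider lineage were lower, with sums of 230.04 to 259 FPKM against 175 to 249.6 FPKM, and these overlapped. This list is not limited to precursors, since it includes Olig1, Olig2, Bcas1 and Gpr17. Pdgfra and Cspg4 had log2 differences of -0.07 and -0.14. No ependymal, precursor or lineage marker was called or at 0, and the part of these shifts in the Rab levels was not tested. Blood markers were lowest in knock-in replicate 3, at 761 FPKM against 1136 to 1479 FPKM. The 6 tested interneuron markers were all higher in knock-in, with 0 called. In bulk tissue, fewer cells of a type and less RNA per cell cannot be told apart.

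What the substrates share in sequence was read first, at the switch II loop, because the altered kinase acts in that loop. The stretches below run from the tryptophan codon of the G3 nucleotide-binding motif through 14 codons, 42 bases of coding sequence, 5′ to 3′ in the direction of the messenger RNA (GENCODE release M21, GRCm38). Capitals mark the codon in the switch II loop that aligns with the known LRRK2 phosphorylation site of Rab10 and Rab8a, the tenth codon after the tryptophan. The 13 substrates are shown in full because the comparison rests on them.
Rab3a: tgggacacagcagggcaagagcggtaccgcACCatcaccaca
Rab3b: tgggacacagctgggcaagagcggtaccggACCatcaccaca
Rab3c: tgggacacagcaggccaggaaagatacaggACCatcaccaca
Rab3d: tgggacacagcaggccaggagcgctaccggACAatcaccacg
Rab8a: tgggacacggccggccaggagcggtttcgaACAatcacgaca
Rab8b: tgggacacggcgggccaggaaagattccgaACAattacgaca
Rab10: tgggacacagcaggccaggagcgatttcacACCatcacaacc
Rab35: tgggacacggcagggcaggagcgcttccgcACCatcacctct
Rab43: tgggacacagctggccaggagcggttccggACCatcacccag
Rab12: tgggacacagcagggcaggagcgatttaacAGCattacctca
Rab5a: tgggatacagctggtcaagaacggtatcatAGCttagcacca
Rab5b: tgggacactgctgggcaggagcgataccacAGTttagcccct
Rab29: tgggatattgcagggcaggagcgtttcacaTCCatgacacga

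In 9 of the 13 substrates the marked codon encoded threonine and in 4, Rab5a, Rab5b, Rab12 and Rab29, serine. Counted from the first methionine, it was residue 73 in Rab10, 72 in Rab8a, Rab8b, Rab35 and Rab29, 86 in Rab3a, Rab3b and Rab3d, 94 in Rab3c, 84 in Rab5a and Rab5b, 105 in Rab12 and 80 in Rab43. In Rab10 the marked codon lies in exon 3 of its 1 annotated transcript. A hydroxyl residue at this place was not limited to the substrates. Among the 42 other members the codon encoded serine in 19, threonine in 7 and another residue in 14, and the motif was not found in 2 (Rab7b and Rab28). The motif was searched on the translated reading frame as tryptophan, an acidic residue, any residue, alanine or serine, and glycine, and was found in 53 of the 55 genes. A match is a description of the letters and not a phosphorylation site. The other members below were chosen as the close relative Rab5c, 4 abundant members and 1 with another residue at this place.
Rab5c: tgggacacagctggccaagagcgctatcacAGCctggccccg
Rab1b: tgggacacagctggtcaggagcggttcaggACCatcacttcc
Rab6b: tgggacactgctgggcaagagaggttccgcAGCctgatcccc
Rab2a: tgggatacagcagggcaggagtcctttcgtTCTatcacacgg
Rab7: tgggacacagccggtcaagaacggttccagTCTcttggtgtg
Rab11a: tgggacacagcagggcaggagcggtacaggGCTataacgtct

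The family as a whole was evenly expressed across the 6 libraries. The FPKM of all 55 members summed to 1154, 1109.5 and 1165 in wild type replicates 1 to 3 and to 1161, 1193 and 1152.5 in knock-in replicates 1 to 3, and took 0.344% to 0.366% of all FPKM of a library. Wild type replicate 2 was lowest and knock-in replicate 2 highest, and the groups overlapped. Substrates made up 28.6% ± 0.150 of the family's FPKM in wild type and 28.9% ± 0.188 in knock-in (SD, n = 3 each). This share did not overlap, at 28.5%, 28.7% and 28.4% in wild type and 28.8%, 29.1% and 28.8% in knock-in, and it was not tested. Its nearest libraries were almost level, at 28.735% in wild type replicate 2 and 28.772% in knock-in replicate 3. The sums include Rab43, a gene of uncertain level that was at 0.449 FPKM in wild type replicate 1. The separation therefore cannot be read as a shift of the substrates as a group. Levels per length spanned from 137 FPKM for Rab6b, which acts at the Golgi in neurons, to 0.108 FPKM for Rab44 as means over the 6 libraries. The 5 highest members were Rab6b, Rab3a, Rab2a, Rab1b and Rab15, and they held 41.2% ± 0.601 of the family's FPKM in wild type and 41.4% ± 0.128 in knock-in. Only Rab3a among them is a substrate.

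**Figure D1:**
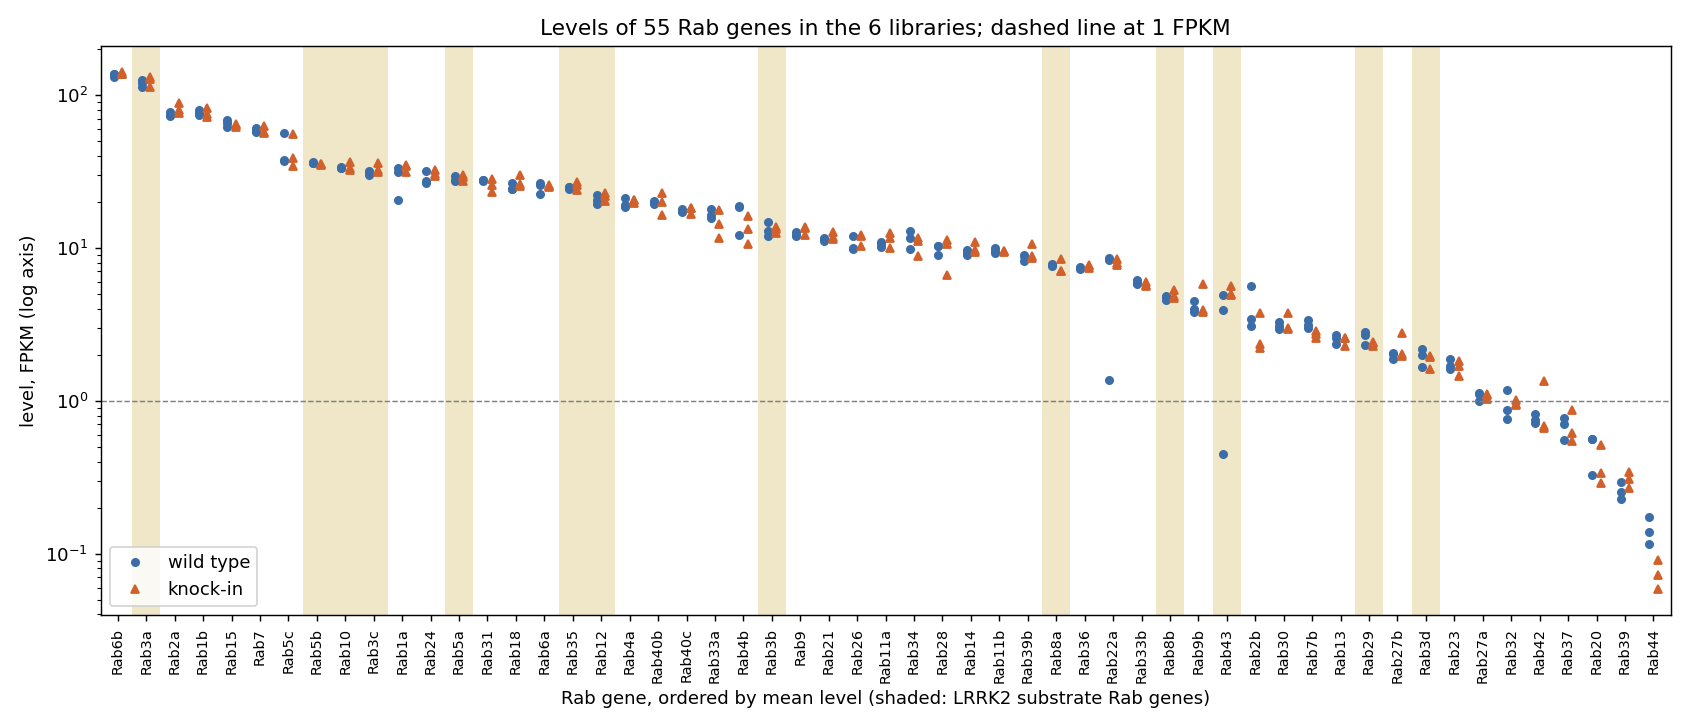
Level of each of the 55 Rab genes in FPKM on a log axis, ordered by mean, with 1 point per library (circles, wild type; triangles, knock-in) and shaded columns for the 13 substrates. Substrates lie along the whole order from Rab3a to Rab3d, and single wild-type points of Rab43 (0.449 FPKM) and Rab22a (1.36 FPKM) sit far below the others.

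The order of levels was a slope with few steps. Of the 54 pairs of neighbours in the order, the ranges over the 6 libraries were apart in 7. These steps lay below Rab3a, Rab1b, Rab7, Rab35, Rab33b, Rab23 and Rab39. Rab6b and Rab3a overlapped at the top, at 130.7 to 141.6 and 112 to 132 FPKM. Rab3a stood above the next member, Rab2a, at 72.7 to 88.7 FPKM. A mean of 1 FPKM or more was required for testing, which 49 of the 55 reached, among them all 13 substrates. Rab32, Rab42, Rab37, Rab20, Rab39 and Rab44 fell below this level, at means of 0.950 down to 0.108 FPKM. Rab32, a close relative of Rab29 found on melanosomes and other lysosome-related organelles, was at 1.17, 0.760 and 0.867 FPKM in wild type and 0.958, 1.01 and 0.934 FPKM in knock-in.

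Genotypes were compared by limma on log2(FPKM + 1), a scale that understates differences of genes at low levels, with Benjamini-Hochberg adjustment over all 14156 genes tested and a call at an adjusted p under 0.05. No Rab gene was called. The count was 0 of 13 substrates and 0 of 36 other members, against a background of 0.0212% of all genes tested (3 genes), and 0 of the 49 also had an unadjusted p under 0.05, which 4.27% of all genes had. The lowest adjusted p of any member was 0.997, and over the alternative settings it lay between 0.410 and 1. The value of 0.410 belonged to Rab39b, with cortical marker level added as covariate, a setting in which 11 of the 49 members and 10% of all genes tested had an unadjusted p under 0.05. Of the 13 substrates 8 were higher and 5 lower in knock-in, with a median log2 difference of 0.03. Of the 36 other members 20 were higher and 16 lower, with a median of 0.02. Over all genes tested the median was -0.01 and 43.6% were higher. Set against the wild-type average, the median substrate stood at -0.02, -0.02 and 0.02 in the wild-type libraries and -0.01, 0.05 and 0.06 in knock-in, so knock-in replicate 1 lay within the wild-type range. For the other members it was 0.01, -0.02 and 0.03 in wild type and 0.01, 0.02 and 0.02 in knock-in. By the residue at the switch II place, the median was 0.05 for the 9 substrates with threonine and -0.0044 for the 4 with serine, and -0.01 for 7 tested other members with threonine and 0.03 for 16 with serine. No test of substrates against other members was made, since the members were chosen with results of these data known.

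The 95% intervals of the fold were turned back from the FPKM + 1 scale to FPKM at the wild-type level of each gene. For 12 of the 13 substrates they lay between 0.746 (the lower bound of Rab3d) and 1.199 (the upper bound of Rab3c). The exception was Rab43. The median spread between libraries of a group was 0.08 on the log2 scale for substrates, 0.09 for other members and 0.10 for all genes tested.

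**Figure D2:**
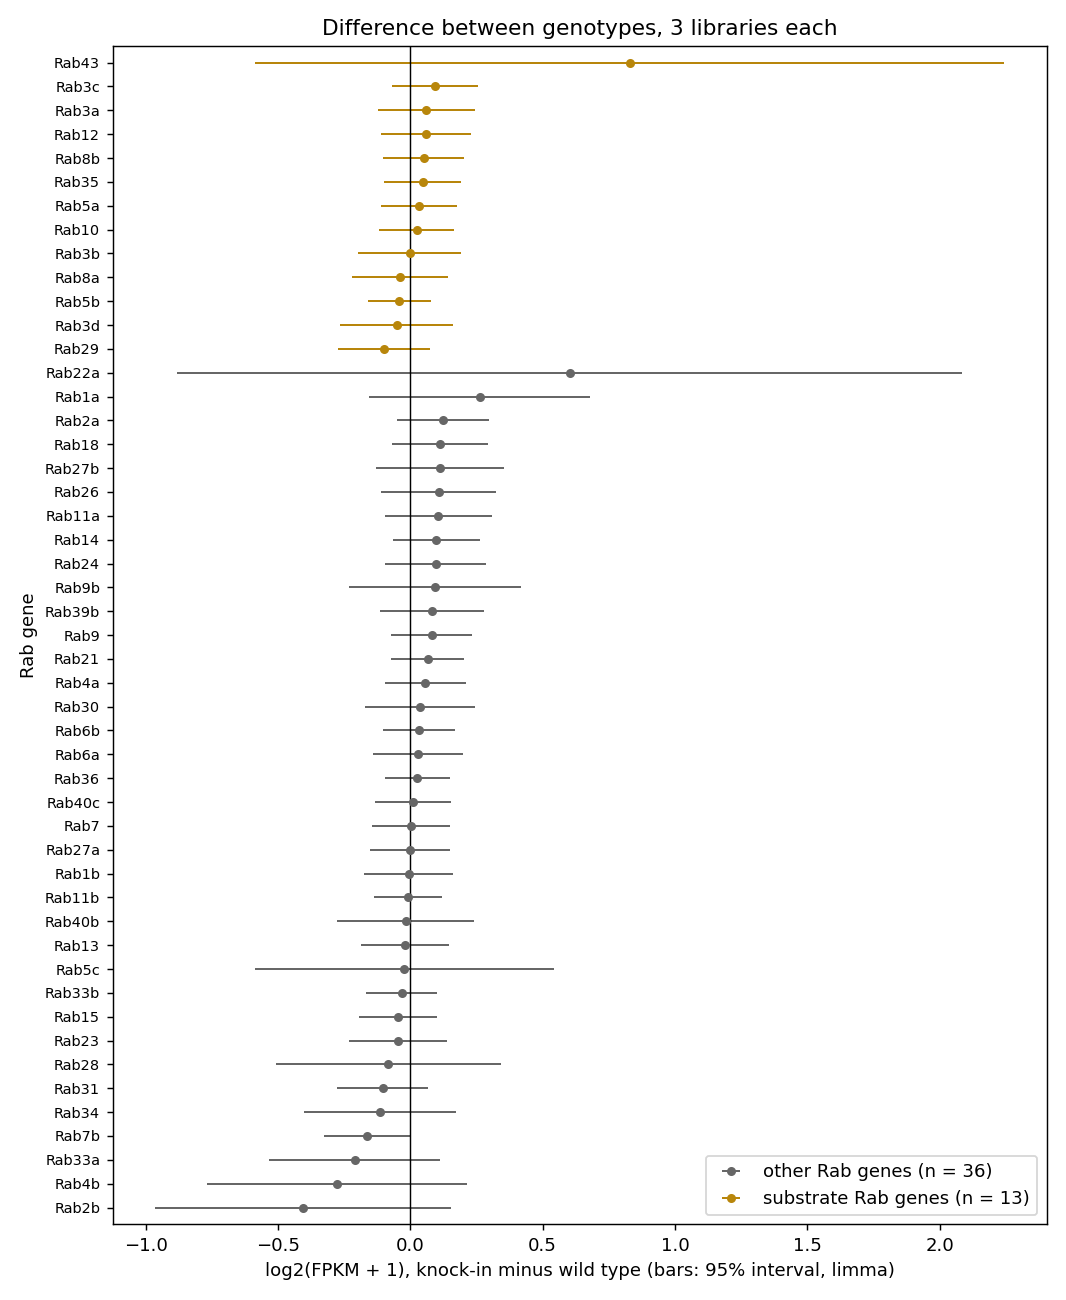
Difference between genotypes for the 49 tested Rab genes on the log2(FPKM + 1) scale, knock-in minus wild type, as points with 95% intervals from limma (3 libraries each). All 49 intervals include 0, and those of Rab43 and Rab22a are the widest of the family.

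Among substrates of the regulated secretory pathway, Rab3a, which sits on synaptic vesicles and tunes transmitter release, was at 125, 112 and 119.9 FPKM in wild type and 128, 132 and 113 FPKM in knock-in, in order of replicate as throughout. The groups overlapped. The means were 119.03 ± 6.18 and 124 ± 9.59 FPKM (SD, n = 3 each). The log2 difference of 0.06 had an SE of 0.08, and the interval of the fold ran from 0.917 to 1.19. Its 3 highest libraries, wild type replicate 1 and knock-in replicates 1 and 2, were the 3 with the most Slc17a7, and with cortical marker level added as covariate the difference was -0.03 (adjusted p = 0.904 in limma). The 3 highest libraries were these in 6 of the 49 tested members (Rab3a, Rab4a, Rab13, Rab24, Rab26 and Rab40c), 12.2%, and in 9.97% of all genes tested, and the part of cortical RNA in these levels was not tested further. Rab3a lies at chr8:70754679-70758677 on the plus strand.

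The paralogues of Rab3a stood at lower levels. Rab3c was at 30.05, 31.6 and 31.4 FPKM in wild type and 31.2, 32.4 and 36.05 FPKM in knock-in, highest in knock-in replicate 3 and overlapping below that. Its log2 difference of 0.09 (SE 0.07) was not called (adjusted p = 0.997 in limma). Rab3b was at 12.9, 12.0 and 14.8 FPKM in wild type and 13.2, 12.5 and 13.7 FPKM in knock-in, with the knock-in libraries inside the wild-type range. Rab3d, an isoform best known from exocrine granules, was the lowest substrate, at 2.17, 1.67 and 1.98 FPKM in wild type and 1.97, 1.93 and 1.60 FPKM in knock-in. Rab3a made up 72.0% ± 1.21 of the FPKM of these 4 genes in wild type and 71.99% ± 2.74 in knock-in. Rab3c made up 18.8% ± 1.19 and 19.3% ± 2.22, Rab3b 7.99% ± 0.691 and 7.64% ± 0.662, and Rab3d 1.17% ± 0.111 and 1.06% ± 0.0807 (SD, n = 3 each). The wild-type and knock-in libraries overlapped in each of these shares. In knock-in replicate 3 the share of Rab3a was lowest (68.8%) and that of Rab3c highest (21.9%).

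**Figure D3:**
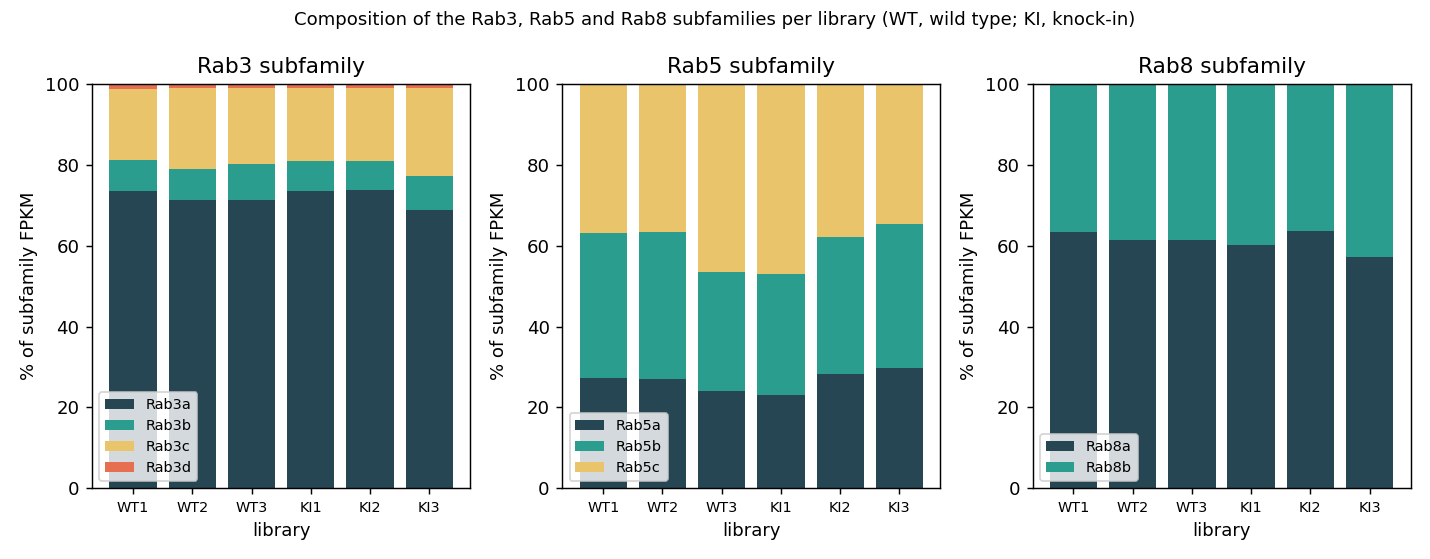
Share of each paralogue in the summed FPKM of the Rab3, Rab5 and Rab8 subfamilies, 1 bar per library, in percent. Rab3a holds 68.8% to 73.8% of its subfamily, while the Rab5c share stands at 46.5% and 47.1% in wild type replicate 3 and knock-in replicate 1 and at 34.6% to 37.9% in the other 4 libraries.

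Rab5b had the narrowest range of the 49 tested members, its highest library 1.05 times its lowest. Rab5a, which drives fusion of early endosomes and receptor uptake, was at 27.6, 27.2 and 29.3 FPKM in wild type and 27.2, 29.1 and 29.8 FPKM in knock-in, overlapping. Rab5b was at 36.4, 36.1 and 35.8 FPKM in wild type and 35.1, 34.7 and 35.5 FPKM in knock-in. All 3 knock-in libraries of Rab5b lay below all wild-type ones, a separation in that direction that 6.58% of all genes tested showed. It was small, a ratio of 0.971 of the means and a log2 difference of -0.04 (SE 0.05, adjusted p = 0.997 in limma), with an interval of the fold from 0.892 to 1.06. Of the 50-base stretches of Rab5b, 12.999% also occur in transcripts of 1 other gene, Gm13991, so some of its reads could be assigned there.

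Rab5c, the remaining paralogue, counted here among the other members, varied most between libraries within its subfamily. It was at 37.6, 36.8 and 56.6 FPKM in wild type and 55.6, 38.9 and 34.5 FPKM in knock-in. One library of each genotype was high and the other 4 lay together, with means of 43.7 ± 11.2 and 42.98 ± 11.1 FPKM (SD, n = 3 each). Rab5c has 4 annotated transcripts and no exon shared with another gene. With Rab5c counted as a substrate the median of that group was 0.03, as without it.

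Rab8a, Rab8b and Rab10 serve transport from the Golgi and recycling compartments to the plasma membrane, and Rab8a also the primary cilium. Rab10 was at 33.1, 33.9 and 33.4 FPKM in wild type and 32.5, 33.5 and 36.2 FPKM in knock-in, a log2 difference of 0.02 (SE 0.06) with an interval of the fold from 0.9201 to 1.13. Only knock-in replicate 3 left the wild-type range on the high side, and without it the difference was -0.02. Rab8a was at 7.87, 7.64 and 7.72 FPKM in wild type and 7.04, 8.48 and 7.05 FPKM in knock-in. The knock-in libraries lay on both sides of the wild-type range. Rab8b was at 4.56, 4.80 and 4.83 FPKM in wild type and 4.68, 4.84 and 5.29 FPKM in knock-in. Rab8a held 62.1% ± 1.09 of the FPKM of the pair in wild type and 60.3% ± 3.26 in knock-in, lowest in knock-in replicate 3 (57.1%). Rab10 lies at chr12:3247428-3309969 on the minus strand, and Rab8a at chr8:72161200-72183904 on the plus strand.

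Rab35 and Rab12 act in endosomal recycling and sorting. Rab35 was at 24.8, 24.4 and 24.98 FPKM in wild type and 25.9, 27.0 and 23.9 FPKM in knock-in, 2 libraries above and 1 below the wild-type range. Rab12 was at 22.2, 19.5 and 20.6 FPKM in wild type and 20.3, 23.0 and 21.8 FPKM in knock-in, overlapping. Their log2 differences were 0.05 (SE 0.06) and 0.06 (SE 0.07). Rab29, which can recruit LRRK2 to membranes and lies in a region linked to Parkinson's disease risk, was among the low substrates. It was at 2.31, 2.69 and 2.81 FPKM in wild type and 2.39, 2.41 and 2.27 FPKM in knock-in. Wild type replicate 1 lay among the knock-in libraries. The log2 difference of -0.10 (SE 0.07) had an interval of the fold from 0.7605 to 1.07 and was not called (adjusted p = 0.997 in limma). Rab29 lies at chr1:131867224-131872887 on the plus strand.

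Rab43, a Golgi and endoplasmic reticulum Rab, had the largest difference of any member, and it rested on 1 library. It was at 0.449, 4.93 and 3.90 FPKM in wild type and 5.01, 5.601 and 4.95 FPKM in knock-in. All knock-in libraries lay above all wild-type ones, though knock-in replicate 3 and wild type replicate 2 were nearly level, and 2.92% of all genes tested were separated in this direction. The log2 difference was 0.83 (SE 0.56, adjusted p = 0.997 in limma), with an interval of the fold from 0.531 to 6.24. Without wild type replicate 1 it was 0.20. Rab43 (chr6:87788853-87812164, minus strand) shares 4164 exon bases with the overlapping model Gm45140 on the same strand, and 90.3% of its 50-base stretches occur there too. Gm45140 was at 0.243, 1.36 and 0.126 FPKM in wild type and 0.130, 0.0518 and 0.124 FPKM in knock-in. Reads of Rab43 could be assigned to either gene, so its level is uncertain.

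Outside the substrates, the largest differences likewise came from members with wide levels. The highest library was over 1.5 times the lowest in 9 of the 49 tested members, 1 substrate (Rab43) and 8 others, against 18% of all genes tested, so the family's share lay at the background. Rab22a, an endosomal Rab, was at 8.35, 1.36 and 8.58 FPKM in wild type and 8.46, 7.92 and 7.75 FPKM in knock-in. Wild type replicate 2 alone was low. The log2 difference of 0.60 became -0.07 without it. Rab1a, which serves transport from the endoplasmic reticulum to the Golgi, was low in the same library, at 31.4, 20.4 and 33.1 FPKM in wild type against 31.4, 34.4 and 34.6 FPKM in knock-in. Its log2 difference of 0.26 was 0.05 without wild type replicate 2. This library also held 374 FPKM of the choroid plexus transcript Ttr, while the others had 2.12 to 16.2 FPKM, and the part of this in the levels of Rab22a and Rab1a was not tested. The 6 choroid plexus markers summed to 384 FPKM there and to 6.52 to 21.8 FPKM elsewhere, with none at 0.

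**Figure D4:**
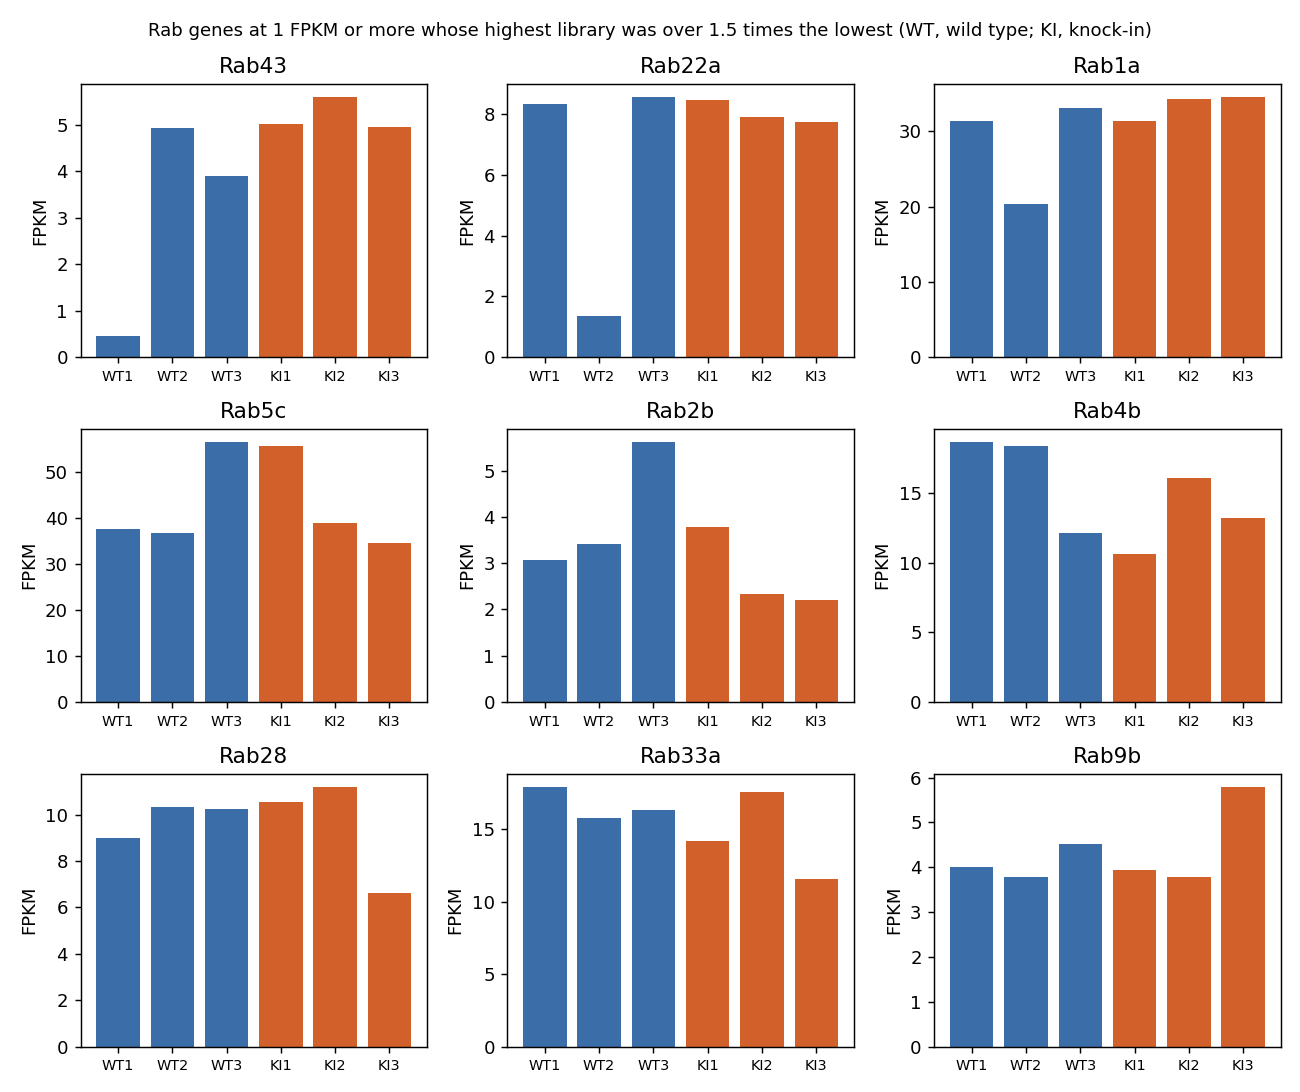
FPKM per library of the 9 tested Rab genes whose highest library exceeded the lowest by over 1.5 times, 1 bar per library with axes from 0. One library stands alone in Rab43, Rab22a, Rab1a, Rab28 and Rab9b, and a library of each genotype is high in Rab5c.

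Among the endoplasmic reticulum and Golgi Rabs, 4 of 14 tested members (Rab43, Rab1a, Rab2b and Rab33a) had a highest library over 1.5 times the lowest. Rab2a was at 73.5, 72.7 and 77.1 FPKM in wild type and 75.8, 79.3 and 88.7 FPKM in knock-in, highest in knock-in replicate 3, with a log2 difference of 0.12 (SE 0.07, adjusted p = 0.997 in limma). Its minor paralogue Rab2b was at 3.06, 3.41 and 5.63 FPKM in wild type and 3.77, 2.34 and 2.20 FPKM in knock-in. Wild type replicate 3 and knock-in replicate 1 were the high libraries of Rab2b, as they were of Rab5c. Rab2b shares 2469 exon bases with Gm43766 on the other strand, and its log2 difference of -0.41 (SE 0.23) was -0.19 without wild type replicate 3. Rab1b was at 80.2, 73.9 and 75.7 FPKM in wild type and 74.5, 82.4 and 72.1 FPKM in knock-in. Rab6b, a form enriched in neurons, was at 131, 137 and 138 FPKM in wild type and 142, 136 and 137 FPKM in knock-in, and held 84.4% ± 0.810 and 84.5% ± 0.259 of the FPKM of Rab6a and Rab6b. Rab18, found on lipid droplets and the endoplasmic reticulum, was at 24.1, 24.3 and 26.7 FPKM in wild type and 26.3, 25.4 and 29.9 FPKM in knock-in. Rab33a, a Golgi and vesicle Rab, was at 18.0, 15.8 and 16.3 FPKM in wild type and 14.2, 17.6 and 11.6 FPKM in knock-in, lowest in knock-in replicate 3. Of 14 tested members with this role, 9 were higher and 5 lower, with a median of 0.03.

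Rab4b, a recycling Rab, was at 18.7, 18.4 and 12.1 FPKM in wild type and 10.6, 16.1 and 13.2 FPKM in knock-in, a log2 difference of -0.28 (SE 0.20, adjusted p = 0.997 in limma). Wild type replicate 3 lay with the knock-in libraries, and without it the difference was -0.47. Rab4b shares 1280 exon bases with the same-strand model Gm21983, and 80.3% of its 50-base stretches occur there, so its level is uncertain. Rab14, which acts between Golgi and endosomes, was at 9.18, 8.95 and 9.66 FPKM in wild type and 9.39, 9.74 and 10.9 FPKM in knock-in. Rab15, a neuronal endosomal Rab, was at 68.5, 66.0 and 61.6 FPKM in wild type and 61.7, 64.4 and 63.6 FPKM in knock-in. Among early endosome members, Rab31, which carries cargo between Golgi and endosomes, was at 27.8, 27.8 and 27.5 FPKM in wild type and 25.9, 28.1 and 23.3 FPKM in knock-in.

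Rab7, which takes late endosomes to the lysosome, was level at 60.7, 57.8 and 57.2 FPKM in wild type and 57.3, 62.2 and 56.7 FPKM in knock-in, and 24.9% of its 50-base stretches occur in its pseudogene Rab7-ps1. Its relative Rab7b was at 3.39, 3.12 and 2.97 FPKM in wild type and 2.73, 2.87 and 2.55 FPKM in knock-in. All knock-in libraries of Rab7b lay below the wild-type ones, as in 6.58% of all genes tested. The log2 difference was -0.16 (SE 0.07, unadjusted p = 0.0531, adjusted p = 0.997 in limma), the lowest unadjusted p of the family, and it ran from -0.195 to -0.122 when each library was left out in turn. Rab7b lies at chr1:131688695-131715439, on the same strand of chromosome 1 as Rab29. Rab9, which returns receptors from late endosomes to the Golgi, was at 12.0, 12.2 and 12.8 FPKM in wild type and 12.2, 13.8 and 13.4 FPKM in knock-in.

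By role, the numbers higher and lower were 4 and 3 of 7 tested secretory vesicle members, 4 and 3 of 7 early endosome members, 5 and 3 of 8 recycling members, 2 and 4 of 6 members of polarised exocytosis and the cilium, and 3 and 2 of 5 late endosome and lysosome members. Rab44, too low for the main test at a mean of 0.108 FPKM, spanned 0.115 to 0.173 FPKM in wild type, above 0.0584 to 0.0912 FPKM in knock-in. Of all genes tested, 6.58% were separated in that direction. With no filter its log2 difference was -0.09 and not called (unadjusted p = 0.0198, adjusted p = 0.968 in limma).

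Knock-in replicate 3 was the library at the edge most often. It was the highest of the 6 in 14 (28.6%) and the lowest in 15 (30.6%) of the 49 tested members. Over all genes tested these shares were 17.6% and 32%, so the share as lowest lay at the background. Wild type replicate 1 and knock-in replicate 2 were each highest in 12 members (24.5%), against 15.1% and 24.7% of all genes tested. The high members of knock-in replicate 3 included Rab2a, Rab3c, Rab10, Rab14, Rab18, Rab27b and Rab9b, and its low ones Rab28, Rab31, Rab33a and Rab34. Rab9b was at 5.80 FPKM there against 3.78 to 4.52 FPKM elsewhere, and Rab28 at 6.62 FPKM against 8.9998 to 11.2 FPKM. That library also had the lowest marker sums of oligodendrocytes, their precursors and wider lineage, astrocytes, microglia, endothelial and mural cells, choroid plexus and blood. Its projection neuron marker sum was the highest, at 3087 FPKM. The part of these in the Rab levels was not tested. Without knock-in replicate 3 the median log2 difference was 0.01 for substrates and 0.02 for other members.

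The genes that load, unload and read out Rabs were compared from lists of their functions. Of 134 listed genes, 131 had a row and 115 were tested, with 44 higher, 71 lower, 0 called and 4 at an unadjusted p under 0.05, and a median of -0.02. Over all genes tested 43.6% were higher, 4.27% had an unadjusted p under 0.05 and the median was -0.01, so most genes also leaned lower. Exchange factors were lower in 19 of 25 and higher in 6, with a median of -0.04. GTPase-activating proteins were lower in 23 of 35 and effectors in 22 of 39, with medians of -0.01 and -0.02. GDP dissociation inhibitors and prenylation factors stood higher for 6 of the 8 tested (median 0.05). Usp6nl, a GTPase-activating protein of Rab5, was at 4.39, 4.75 and 4.70 FPKM in wild type and 4.10, 3.89 and 3.95 FPKM in knock-in. Tbc1d16, another such protein, was at 26.5, 28.0 and 29.0 FPKM in wild type and 25.2, 24.5 and 24.9 FPKM in knock-in. Both were lower in all knock-in libraries, with log2 differences of -0.17 (SE 0.06) and -0.16 (SE 0.06). Neither was called (adjusted p = 0.997 in limma for both). Of the 115 tested, 8 were separated in that direction and 2 in the other, against 6.58% and 2.92% of all genes tested.

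None of the other regulators at the top of either direction was called. Rilp, an effector of Rab7, averaged 2.43 ± 0.207 FPKM in wild type against 1.998 ± 0.215 FPKM in knock-in (SD, n = 3 each). Micall1, an effector of Rab8 and Rab35 on recycling tubules, averaged 18.5 ± 1.96 FPKM against 15.7 ± 1.48 FPKM. In the other direction, the early endosome effector Rabep1 was at 13.1 ± 2.39 and 15.1 ± 0.660 FPKM. Its wild type replicate 3 stood low at 10.4 FPKM, and the remaining libraries spanned 14.3 to 15.9 FPKM. Ppm1h, a phosphatase that removes the LRRK2 mark from Rabs, was at 3.32, 3.16 and 3.15 FPKM in wild type and 3.93, 3.47 and 3.50 FPKM in knock-in. Its groups were apart, as in 2.92% of all genes tested in that direction. The log2 difference was 0.14 (SE 0.07, adjusted p = 0.997 in limma). Tbc1d10a and Ehbp1 had log2 differences of 0.09 and 0.08. Lrrk2 itself was at 10.9, 12.0 and 10.996 FPKM in wild type and 12.1, 11.3 and 12.4 FPKM in knock-in, overlapping. By mean over the 6 libraries, Lrrk2 (11.6 FPKM) stood below Rab3b (13.2 FPKM) and above Rab8a (7.63 FPKM). The ranges of Lrrk2 and Rab3b overlapped.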

How the data were processed

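Dorsal striatum RNA was measured in 6 libraries, 3 per genotype. The authors deposited 1 table of FPKM values per gene, and the submitters' processing notes list FastQC, HISAT2, SAMtools and StringTie with no versions. The build, annotation and strand setting were not given in the sources used here. Read depth is unknown, since read counts could not be recovered from the FPKM values, so no count model was run. FPKM summed to 314146 to 335508 per library.

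Testing covered genes averaging 1 FPKM or more and was done with limma 3.58.1 (R 4.3.3) on log2(FPKM + 1), two-sided, with a trended, robust prior variance and Benjamini-Hochberg adjustment over all genes tested. The procedure was tested on simulated data. Intervals are 95% intervals, given as folds of FPKM. Alternatives were pseudocount 0.1, no filter, a minimum of 5 FPKM, quantile and median-of-ratios scaling, a constant prior, a replicate block, a cortical marker covariate (9 genes), Rab5c among the substrates, and leaving out each library.

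Positions, exon overlaps, shared 50-base stretches and coding stretches are from GENCODE M21 (GRCm38), which may differ from the authors' annotation. Members and lists were chosen with earlier results of these data known. Named were all substrates, the other Rabs with the 5 smallest p in each direction and the 5 highest levels, Rab5c, Rab32, any Rab inside its role group, the 4 regulators with the smallest p in each direction, Lrrk2, and markers that differed most within a group. Xist and Gm45140 were named after their values were seen.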

Additional observations from a re-analysis of the deposited data

How the results depend on the processing

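No substrate Rab, other Rab or regulator was called under any alternative run (0 in each). Over all genes the number called was 3. It was 2 to 4 under the other filters, scalings, pseudocount, prior and covariate, and 3 to 15 when each library was left out in turn (8 without wild type replicate 2, and 11, 15 and 6 without knock-in replicates 1, 2 and 3). The median of other Rabs was 0.0374 under median-of-ratios scaling and lay between -0.0001383 and 0.03014 when each library was left out, against 0.02. Some differences of named genes, none of them called, changed sign. With the cortical marker covariate they were -0.03464 for Rab3a, 0.03816 for Rab3b, -0.009344 for Rab35 and -0.0307 for Rab7. With quantile normalization they were 0.009993 for Rab3b and -0.01314 for Rab7, and with median-of-ratios scaling 0.01664 for Rab3b and 0.01375 for Rab1b. Leaving out each library gave -0.0667 to 0.07493 for Rab3b, -0.1205 to 0.008219 for Rab3d, -0.01801 to 0.05713 for Rab10, -0.06184 to 0.03325 for Rab1b, -0.03769 to 0.02882 for Rab7 and -0.2189 to 0.1748 for Rab5c. The cause was not tested. Deviations of same-numbered libraries had Pearson r across genes of -0.011, -0.074 and 0.186, and differently numbered ones -0.1845 to 0.21. With 3 libraries per group this cannot show whether the numbers pair the samples. With the replicate block 2 genes were called, no Rab among them, and the lowest adjusted p of a Rab in limma was 0.998. Read depth is unknown, so counting error could not be separated from the spread between libraries.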
